A study of Rattus norvegicus with 6 samples.

Results

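Cyp2e1 and Eif4b are read by 2 of the 62 linear probes that a rat circular RNA (circRNA) array holds beside its 14145 circRNA probes, 14207 probes used here. They were selected from the measured values themselves, as the 2 linear probes called lower in injured than in normal lung after each array was scaled to its circRNA probes. Their difference between the groups is therefore given as a description, with a standard error and no test. Each gene has 1 probe, printed as 10 separate spots on every array. The accession printed with each probe matched 1 symbol in a RefSeq gene table. The probe sequences were not used here. That table lists 4 Eif4b pseudogenes and 0 for Cyp2e1, and whether the Eif4b probe also binds pseudogene transcripts was not tested.

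The lungs came from 6 adult male rats, 3 normal and 3 with acute respiratory distress syndrome (ARDS) induced by lipopolysaccharide, the endotoxin of Gram-negative bacteria. The strain, the dose and route of lipopolysaccharide, the time of sampling and any mock treatment of the normal rats are not given in the sources used here. RNA of all 6 lungs was treated alike: it was digested with RNase R, which degrades linear RNA, then amplified from random primers, labelled with Cy3 and hybridised to 1 array per lung. A linear transcript is thus read in what the digestion left, and a circRNA that holds the probed stretch would be read by the same probe. Neither contribution was tested. Cells in lung tissue are mixed, so fewer cells of a type and less RNA per cell cannot be told apart. Of 31 marker genes of lung and blood cell types that were listed, 0 have a named linear probe on the array, so the tissue could not be checked against its markers.

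Cytochrome P450 2E1, the product of Cyp2e1, is a haem enzyme of the endoplasmic reticulum that takes electrons from cytochrome P450 reductase to oxidise small molecules such as ethanol, acetone and paracetamol. It is best known from liver, is also found in airway epithelium, and releases reactive oxygen species while it works. Eukaryotic initiation factor 4B, the product of Eif4b, binds RNA and stimulates the helicase eIF4A, which unwinds the start of mRNAs so that ribosomes can load. It is phosphorylated by S6 kinase below mTOR, a growth and nutrient sensing kinase.

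The arrays of ARDS lung were dimmer as a whole. The 75th percentile of the log2 signal over circRNA probes was 7.59, 7.22 and 7.39 on normal replicates 1, 2 and 3 and 5.99, 6.66 and 5.82 on ARDS replicates 1, 2 and 3. Values are therefore given unscaled, relative to this percentile (called scaled here), and relative to the other linear probes. The array of ARDS replicate 3 had a scan of its own, later than that of the other 5. The labels number the rats from 1 to 6, and each array was taken as 1 animal.

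The Cyp2e1 probe was several-fold dimmer on every ARDS array than on every normal array. Its mean spot signal, in scanner units, was 92.2, 63.3 and 83.3 in normal replicates 1, 2 and 3, and 16.0, 17.9 and 11.4 in ARDS replicates 1, 2 and 3. The highest ARDS array lay far below the lowest normal one, normal replicate 2, and the groups did not overlap. On the log2 scale the unscaled level was 6.30 ± 0.28 for normal and 3.88 ± 0.34 for ARDS arrays (SD, n = 3 each), a difference of -2.41 (SE 0.33), or 5.32-fold. Over the 9 pairs of an ARDS with a normal array the difference ran from -3.03 to -1.83.

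The Eif4b probe showed a drop of like size. Its mean spot signal was 175, 182 and 199 in normal replicates 1, 2 and 3, and 23.7, 53.3 and 30.9 in ARDS replicates 1, 2 and 3. The normal arrays lay close together, the ARDS arrays were more spread, with replicate 2 the highest, and the groups did not overlap. The unscaled log2 level was 7.53 ± 0.09 for normal and 5.08 ± 0.60 for ARDS arrays (SD, n = 3 each), a difference of -2.45 (SE 0.37), or 5.45-fold. The 9 pairs ran from -3.07 to -1.71. The ARDS array lowest for Eif4b was replicate 1, whereas the lowest for Cyp2e1 was replicate 3.

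**Figure D1:**
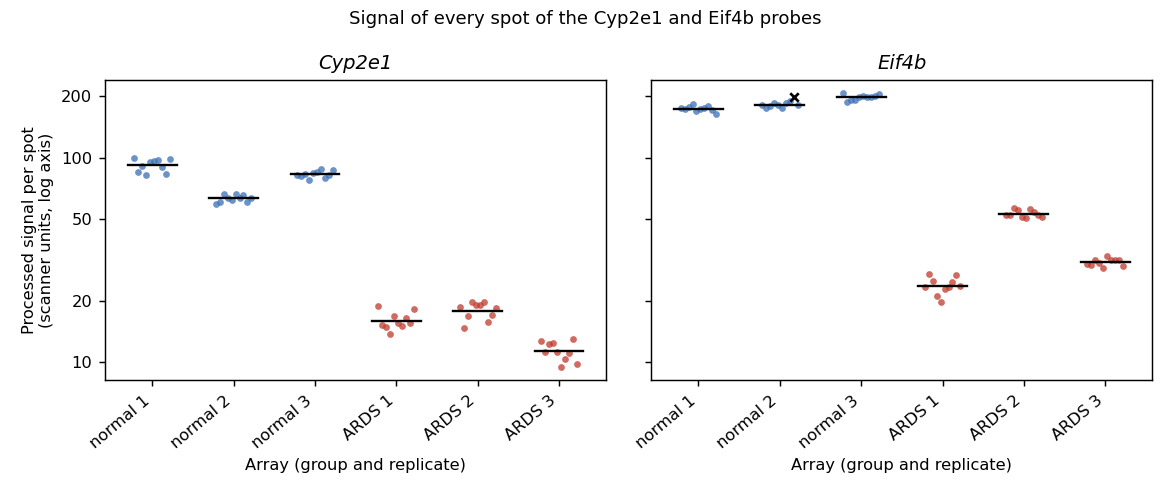
Processed signal of each spot (scanner units, log axis) of the Cyp2e1 and Eif4b probes on the 3 normal (blue) and 3 ARDS (red) arrays; black lines are the geometric mean of the spots used and the cross is a spot left out as an outlier. No ARDS spot reaches the dimmest normal spot of its gene, at 59.7 for Cyp2e1 and 164 for Eif4b.

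The separation held spot by spot. The 30 normal Cyp2e1 spots ran from 59.7 to 99.6 and the 30 ARDS spots from 9.52 to 19.8, so that the dimmest normal spot was 3.01 times the brightest ARDS spot. The 29 normal Eif4b spots used ran from 164 to 207 and the 30 ARDS spots from 19.7 to 56.9, a factor of 2.88 between the nearest spots. One Eif4b spot of normal replicate 2 carried the scanner's outlier flag and was left out. Spots of 1 array share its RNA and are no replicates of the condition. All 10 spots of both probes were flagged well above background on each of the 6 arrays.

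The SD of the log2 signal over the spots of 1 array averaged 0.0720 in normal and 0.146 in ARDS lung for Cyp2e1, and 0.0413 and 0.0865 for Eif4b. This spread is not independent of the choice of the genes, since it follows brightness, and no test is given for it. Over the other linear probes the median spot SD was 0.156 at signals of 10 to 20 and 0.0538 at signals of 60 to 250. For both genes the spread between spots was smaller than the SD between arrays of a group given above.

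The dim ARDS values stood closer to the background. Before subtraction the Cyp2e1 spots averaged 112, 83.2 and 102 in normal replicates 1, 2 and 3, over a local background of 18.1, 18.3 and 18.5. In ARDS replicates 1, 2 and 3 they averaged 37.4, 39.1 and 34.8, over 17.7, 16.3 and 24.7. Spot signal was thus 4.54 to 6.18 times the local background in normal and 1.41 to 2.40 times in ARDS lung. For Eif4b it was 10.7 to 11.7 times in normal and 2.23 to 4.56 times in ARDS lung.

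The local background overlapped between the groups. At the Cyp2e1 spots it was 1.25 units higher in ARDS lung (two-sided exact permutation p = 1) and at the Eif4b spots 1.39 units higher (exact permutation p = 0.8), both p = 1 after adjustment over the 4 tests run, those of spot spread included; 3 arrays against 3 cannot go below 0.1. These differences rested on ARDS replicate 3, the array of the separate scan. Without it they were -1.31 and -0.907.

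**Figure D2:**
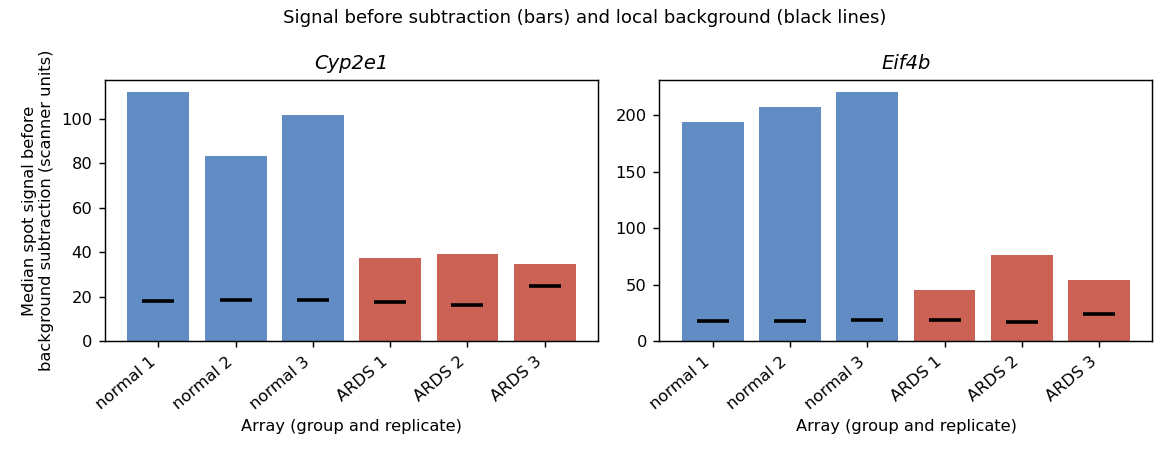
Mean over spots of the median spot signal before background subtraction (bars, scanner units from 0) and of the local background (black lines) for Cyp2e1 and Eif4b on each array, normal in blue and ARDS in red. In ARDS replicate 3 the Cyp2e1 spots averaged 34.8 over a background of 24.7, the narrowest margin shown.

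Relative to the circRNA probes of the same array the drop was smaller but kept its direction. The scaled log2 level of Cyp2e1 was -1.06, -1.24 and -1.01 in normal replicates 1, 2 and 3, and -1.99, -2.51 and -2.32 in ARDS replicates 1, 2 and 3. That of Eif4b was -0.14, 0.28 and 0.24 in normal and -1.43, -0.93 and -0.87 in ARDS replicates 1, 2 and 3. The groups did not overlap for either gene. The scaled difference was -1.17 (SE 0.23) for Cyp2e1 and -1.20 (SE 0.25) for Eif4b, or 2.25-fold and 2.30-fold.

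These values are to be read against all probes. After scaling 8.19% of the 13299 probes tested were called lower in ARDS (limma with Benjamini-Hochberg adjustment), and 3.85% of the 52 linear probes tested, which are Cyp2e1 and Eif4b themselves. The count of lower calls depended on which arrays were kept. Among circRNA probes it was 1087 with all arrays, 141 without normal replicate 1 and 0 without normal replicate 2 or 3. Without ARDS replicates 1, 2 and 3 it was 208, 1072 and 1565. In either direction, 5281 circRNA probes had an unadjusted limma p under 0.05, and 4639, 3854 and 3295 without normal replicates 1, 2 and 3. Lower power with fewer arrays was not separated from dependence on an array. Without scaling 58.7% of all probes and 32.7% of the linear probes were called lower. All 3 ARDS arrays lay below all 3 normal arrays for 11.5% of the linear probes after scaling and for 40.4% without it. Nothing is read from these shares about the 2 genes, which were picked from this contrast.

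Their place within each array, which the subtraction of a percentile or median leaves as it is, also changed. It is taken from the signals that the genes were picked on, so it describes the drop and gives no separate support. Probes differ in how strongly they bind, so only the change in place is read. Cyp2e1 was brighter than 56.5%, 52.7% and 57.5% of the circRNA probes in normal replicates 1, 2 and 3, and than 37.0%, 30.6% and 30.6% in ARDS replicates 1, 2 and 3. Eif4b was brighter than 72.8%, 79.2% and 78.4% in normal and than 48.6%, 59.1% and 59.6% in ARDS replicates 1, 2 and 3. Among the 62 linear probes Cyp2e1 ranked 16 on each normal array and 28, 29 and 30 on the ARDS arrays. Eif4b ranked 10, 9 and 9 on normal and 23, 18 and 17 on ARDS replicates 1, 2 and 3. Over the 9 pairs of an ARDS with a normal array Cyp2e1 stood 12 to 14 places further down and Eif4b 7 to 14.

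**Figure D3:**
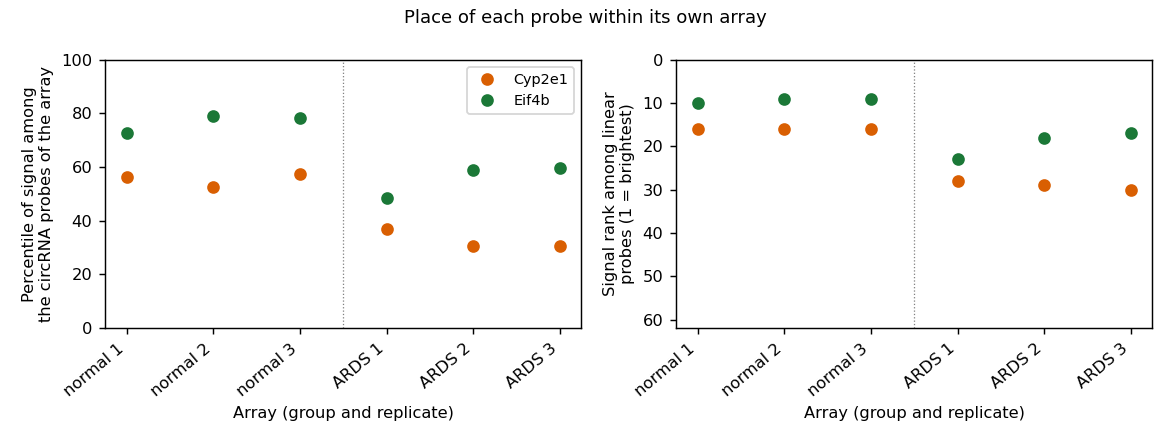
Percentile of each probe's signal among the circRNA probes of the array (left, in percent) and its rank among the 62 linear probes (right, 1 is the brightest), for the 3 normal and 3 ARDS arrays. Cyp2e1 goes from rank 16 on the normal arrays to ranks 28 to 30, and Eif4b from 9 and 10 to between 17 and 23.

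Some circRNAs had lower differences than either gene. Of all tested circRNAs 4.70% had a lower scaled difference than Cyp2e1 and 4.29% a lower one than Eif4b. The circRNAs were also parted by mean signal, from dim to bright, into 10 groups of like size. Cyp2e1 fell in group 4, whose 1325 circRNAs had a median scaled difference of -0.01, and 60 of them lay below Cyp2e1. Eif4b fell in group 7, with a median of -0.12 over 1325 circRNAs, and 69 of them lay below it. Both genes thus lay well below the middle of circRNAs as bright as they were, a place that their selection favours.

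The other linear transcripts shifted less or the other way, so the drop was larger when read against them. Of the 52 linear probes tested, 16 (30.8%) were called higher and 2 lower after scaling, and 1 (1.92%) higher and 17 lower without it (limma, adjusted over all 13299 probes). Without normal replicate 1, 2 or 3 the count of 18 was 2, 0 or 0, and without ARDS replicate 1 or 2 it was 4 or 29. The lower calls among them were 0 without normal replicate 1, 2 or 3, 1 without ARDS replicate 1 and 4 without ARDS replicate 2. Of the linear probes 28, 22, 21, 24 and 33 then had an unadjusted limma p under 0.05, against 29 with all arrays. The median scaled difference was 0.58 over the 52 linear and 0.05 over the circRNA probes, and the unscaled medians were -0.66 and -1.19.

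Against the median of the other 50 linear probes the Cyp2e1 level was 1.86, 1.75 and 2.11 in normal replicates 1, 2 and 3, and -0.23, -0.40 and -0.30 in ARDS replicates 1, 2 and 3. It was positive on every normal and negative on every ARDS array, a difference of -2.22 (SE 0.24). Eif4b stood at 2.78, 3.28 and 3.36 in normal and at 0.33, 1.18 and 1.15 in ARDS replicates 1, 2 and 3. All 3 ARDS arrays lay below the normal ones, at a difference of -2.25 (SE 0.32). How many other probes part the groups on this scale was not counted, so nothing is read from the separation of either gene. For Cyp2e1 the ARDS arrays lay closest together on this scale, with an SD of 0.09 (n = 3) against 0.34 without scaling. Eif4b kept an SD of 0.48 among ARDS arrays, with replicate 1 apart from the other two.

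**Figure D4:**
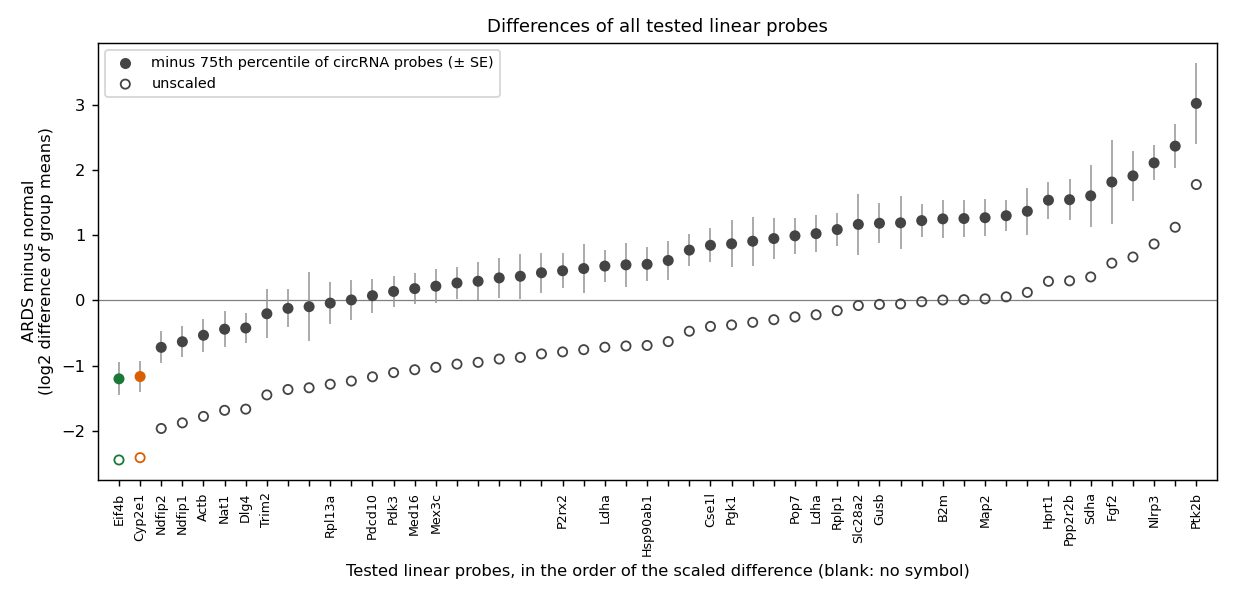
ARDS minus normal log2 difference of each of the 52 tested linear probes, in the order of the scaled difference (filled points, with SE) and without scaling (open points); Cyp2e1 is orange and Eif4b green. Eif4b at -1.20 and Cyp2e1 at -1.17 lie lowest, followed by Ndfip2 at -0.72.

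Eif4b was the lowest and Cyp2e1 the next lowest of the 52 linear probes, scaled and unscaled. The next was Ndfip2, an adaptor of Nedd4-family ubiquitin ligases, at -0.72 scaled (SE 0.24), and after it the related Ndfip1 at -0.64 (SE 0.24). An adjusted p of 0.05 parted the chosen genes from the rest, so none is printed for them. Ndfip2 lay just outside it (limma adjusted p = 0.0703). Without scaling Ndfip2 and Ndfip1 were called lower, at -1.96 and -1.88 (limma adjusted p = 0.00393 and 0.00441), as were 32.7% of the linear probes. Scaled but without background subtraction they were at -0.02 and -0.31 (limma adjusted p = 0.924 and 0.168).

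Other transcripts of the same processes were few on the array. The list of P450 and other drug metabolism genes, drawn up by the start of their symbols, held Cyp2e1 as its only tested probe. Outside that list, Nat1, an arylamine N-acetyltransferase that also acts on drugs, was at -0.44 scaled (SE 0.27, limma adjusted p = 0.255). It was called lower without scaling, at -1.69 (SE 0.37, limma adjusted p = 0.00492). Without background subtraction it was called higher instead, at 0.63 (SE 0.21, limma adjusted p = 0.0389). This dim probe stood well above background on 4 arrays, with signals of 2.93, 6.82 and 4.18 in ARDS replicates 1, 2 and 3. The translation list held Eif4b and 2 ribosomal protein transcripts, of which 1 was called higher after scaling. This was Rplp1, of the ribosomal stalk, at 1.08 scaled (SE 0.25, limma adjusted p = 0.0305), but at -0.16 (limma adjusted p = 0.729) without scaling. Rpl13a, of the large subunit, was at -0.04 scaled (SE 0.32, limma adjusted p = 0.929), -1.29 without scaling and 0.19 without background subtraction. With 3 members the list has a scaled median of -0.04, set by Rpl13a. Eif4b lay below both ribosomal protein transcripts on either scale, a place that its selection as a probe called lower favours. Nothing is read from this about translation.

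Among genes commonly used as references most values lay above 0 after scaling and below 0 without it, as among the linear probes as a whole. After scaling 2 of 11 reference probes lay below 0, beside 11 of the 52 linear probes. Without it these counts were 8 and 39. Over 11 probes of 10 such genes, among them Actb, B2m and Hprt1, the median difference was 1.02 scaled and -0.22 unscaled, with 5 called higher and 0 lower after scaling (limma; 0 lower also at an unadjusted p under 0.05), beside 11.6% of all probes called higher. Without scaling the calls turned round: 0 were called higher (limma, 0 also at an unadjusted p under 0.05) and 2 lower. The 2 were Actb at -1.78 (limma adjusted p = 0.00571) and Rpl13a at -1.29 (limma adjusted p = 0.00844). Beside them 32.7% of the linear and 58.7% of all probes were called lower without scaling. The scaled differences of the reference genes ran from -0.54 for Actb, the cytoskeletal actin, to 1.60 for Sdha of the respiratory chain. Relative to the mean of the reference genes Cyp2e1 differed by -1.99 (SE 0.28) and Eif4b by -2.02 (SE 0.30). The Cyp2e1 level on that scale was -0.70, -0.85 and -0.61 in normal replicates 1, 2 and 3, and -2.39, -2.64 and -3.10 in ARDS replicates 1, 2 and 3. For Eif4b it was 0.23, 0.68 and 0.64, and -1.82, -1.06 and -1.65. The groups did not overlap for either gene, but the share of other probes without overlap on this scale was not counted.

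The linear probes with a symbol whose scaled profile over the 6 arrays was most like that of Cyp2e1 were Dlg4, a synaptic scaffold, Eif4b and Ndfip2, with Pearson's r of 0.84, 0.83 and 0.73 and Spearman's rho of 0.89, 0.66 and 0.71. Those most like Eif4b were Ndfip2, Ndfip1 and Nat1, with r of 0.93, 0.88 and 0.87 and rho of 0.89, 0.89 and 0.77. The least like were B2m, a subunit of MHC class I, for Cyp2e1 (r = -0.97, rho = -0.94) and Rplp1 for Eif4b (r = -0.98, rho = -0.89). These negative values did not hold without scaling, where r was 0.09 for B2m with Cyp2e1 and 0.30 for Rplp1 with Eif4b. Unscaled r was 0.97 for Dlg4 with Cyp2e1 and 0.98 for Ndfip2 with Eif4b. The scaled values all share the scaling of their array and fall into the 2 groups. All these r thus describe the groups more than single rats and carry no test. Within the groups the 2 genes did not order the arrays alike: in scaled values the lowest ARDS array was replicate 2 for Cyp2e1 and replicate 1 for Eif4b.

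The size of the drop depended on how background and brightness were handled, while its direction held in every setting tried. The array median and quantile normalization gave -1.21 and -1.23 for Cyp2e1 and -1.24 and -1.23 for Eif4b. Without background subtraction the scaled difference was -0.39 (SE 0.20) for Cyp2e1 and -0.83 (SE 0.20) for Eif4b. With a normexp correction and quantile normalization it was -0.47 (SE 0.08) and -0.72 (SE 0.13). In these last settings Cyp2e1 was no longer among the lowest 2, ranking 4 of the 52 linear probes, while Eif4b ranked 1 and 2.

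**Figure D5:**
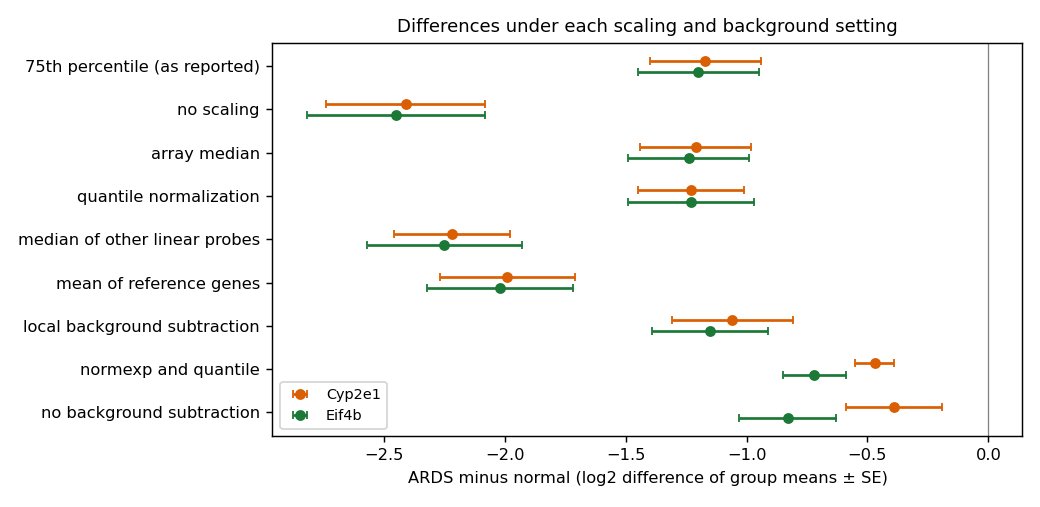
ARDS minus normal log2 difference (with SE) of Cyp2e1 (orange) and Eif4b (green) under each way of scaling the arrays or treating the background; 0 marks no difference. All points lie below 0, from -2.45 for Eif4b without scaling to -0.39 for Cyp2e1 without background subtraction.

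Neither value changed sign with any 1 array left out. The 2 genes were picked from these same arrays, so this describes the values and gives no separate support. The call that picked them did depend on single arrays: 0 linear probes were called lower without normal replicate 1, 2 or 3. With each array left out in turn the scaled difference ran from -1.31 to -1.05 for Cyp2e1 and from -1.34 to -1.03 for Eif4b. Within the first scan, which leaves out ARDS replicate 3, it was -1.15 (SE 0.26) for Cyp2e1 and -1.31 (SE 0.28) for Eif4b. That array was alone in its scan, so fitting the scan as a block only repeats the fit without it. Other filters, the variance setting and a block for the replicate number cannot move the differences. With these they stayed at -1.17 for Cyp2e1 and -1.20 for Eif4b.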

How the data were processed

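Scanner files of 6 one-colour arrays were analysed. The spots were quantified in Agilent Feature Extraction 11.0.1.1 (submitters' processing notes). Its processed signal, the intensity used here, had a background estimate subtracted and a spatial trend removed on each array separately, per the file headers. The authors also deposited a table of log2 values, which served only for the circRNA calls; the submitters' processing notes name limma, with no step given. Of its 13438 rows, 0 were linear probes and 0 had an ARDS mean below the normal mean, so that the direction of its values is not settled. Its columns had medians of 5.97 to 6.50.

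Control spots and outlier-flagged spots (30 to 64 per array) were left out and log2 signals of 1 probe averaged. The 75th percentile over circRNA probes was subtracted. Probes with at least 50% of spots well above background on at least 3 arrays were tested (13247 circRNA, 52 linear) with limma 3.58.1 in R 4.3.3, two-sided, adjusted over all, threshold 0.05. The fit was also tried on simulated arrays with noise drawn separately for each probe. These held no shift in brightness of a whole array, so they say nothing about the scaling. Probes outside the circRNA set that were printed as 10 spots were taken as linear. Of 62 linear probes 39 matched 1 symbol in the RefSeq table (GRCr8), and 20 custom probes of unstated purpose were not used. 0 columns belonged to other samples. The members and lists were chosen with earlier results of these data known. Other genes named were those of the P450, translation and reference lists, the 3 most like and 1 least like each member, and the next in order; the number of arrays limits precision. Alternatives covered scaling, background, filters, spots, variance, weights, blocks and arrays left out.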

Additional observations from a re-analysis of the deposited data

How the results depend on the processing

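The Cyp2e1 and Eif4b differences stayed below 0 in all 23 alternatives. In 18 they moved by less than the SD between arrays, though some cannot move them or are repeats. The value moved further for Cyp2e1 and Eif4b without scaling (-2.41 and -2.45), against the median of the other linear probes (-2.22 and -2.25), against the reference genes (-1.99 and -2.02), with normexp and quantile normalization (-0.47 and -0.72) and without background subtraction (-0.39 and -0.83). Adding the offset of 50 or keeping the background draws the log2 values of dim spots together by arithmetic. Whether this or anything else accounts for the smaller differences was not tested. The linear calls, 18 as reported, were 7 with normexp and 38 without background subtraction, and ran from 0 to 29 with 1 array left out; the cause was not tested. The circRNA calls, 2618 as reported, were 7820 without scaling, 7632 against the other linear probes, 6003 against the reference genes and 6039 without background subtraction, and ran from 3 to 3636 with 1 array left out (3 without normal replicate 2 or 3, where 3854 and 3295 had an unadjusted limma p under 0.05). The difference in local background ran from -1.31 to 2.87 at the Cyp2e1 spots and from -0.907 to 2.94 at the Eif4b spots with 1 array left out, below 0 without ARDS replicate 3. The spread between spots was higher on ARDS arrays in all fits with 1 array left out, by 0.065 to 0.0902 for Cyp2e1 and by 0.0188 to 0.0586 for Eif4b. With the labels' replicate number as a block the linear and circRNA calls were 20 and 2934 and the differences -1.17 and -1.20. The deviations of same-numbered arrays correlated at 0.588, -0.228 and 0.137, and those of other pairs at -0.597 to 0.551. With 3 arrays per group these values cannot tell whether the numbers pair the arrays. Local background subtraction, the first scan alone and all alternatives for local background and spot spread were chosen after seeing the data. The deposited table, whose rows used were all circRNA probes, could not be run for the 2 genes. It gave 2334 circRNA calls, all higher (0 lower, also at an unadjusted limma p under 0.05), and in 0 of its rows was the ARDS mean below the normal mean. Its differences correlated across circRNAs with those of the quantile-normalized raw scanner signal at 0.993 where the scanner signal was higher in ARDS and at -0.993 where it was lower. Its direction is thus not settled, and its calls support nothing here.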
